A study of Mus musculus with 15 samples.

Results

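The enzymes of tryptophan breakdown along the kynurenine pathway were followed in mouse heart and liver allografts. They comprised Ido1, Tdo2, Afmid, Kmo, Kynu and Haao, taken by gene name. The arrays carried 6 matched probes for 5 of these 6 genes, out of 41174 probes and 18217 named genes in all, and Tdo2 had 2 of the 6 probes. No probe was matched to Haao, the dioxygenase that acts after Kynu, and it is not analysed here.

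The study compared allografts with control organs on 15 single-colour Agilent arrays, 3 in each of 5 groups. Hearts were C57BL/10 (B10, H-2b) organs placed in the abdomen of sex-matched CBA (H-2k) recipients, with the recipient's own heart left in place, and were taken at post-operative day 5 (POD5). Livers were B10.BR (BR, H-2k) organs that replaced the liver of B10.D2 (D2, H-2d) recipients, and were taken at POD5 or at POD8. No immunosuppressive treatment is given for any group, all mice were male, and the age of the mice is not given in the sources used here. The heart controls and the liver controls were described as normal tissue in the labels and methods and as isografts elsewhere in the study, and they are called controls here. Organ, strain combination and operation changed together, so a difference between heart and liver cannot be assigned to any of them. The labels do not say whether the arrays of a group came from separate animals, although the study describes its RT-PCR samples as taken from separate mice, and the P-values therefore measure the spread between these samples, which may be technical.

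Tryptophan is opened to N-formylkynurenine by Ido1 or Ido2, or in the liver mainly by Tdo2. Afmid, the kynurenine formamidase, removes the formyl group to give kynurenine. Kmo hydroxylates kynurenine, Kynu cleaves it and its hydroxylated form, and Haao and Qprt carry the product on towards NAD. Ido1 is a well known target of interferon gamma, a cytokine made by activated T cells and natural killer cells, and both the loss of tryptophan and the kynurenines that are formed can restrain T cells. Healthy liver holds the whole route and handles most of the tryptophan of the body, whereas heart muscle is not known for it.

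The primers which the study used for its quantitative RT-PCR of Ido1 are shown 5′ to 3′, in lower case throughout.
Ido1 forward primer: tatccagtgcagtagagcgtcaa
Ido1 reverse primer: ggtccacaaagtcacgcatcc

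Because interferon gamma signalling was examined beside the enzymes, the RefSeq promoters of mouse assembly GRCm38.p6 were searched on both strands in the 250 bases before each start, for the interferon-stimulated response element GAAANNGAAA and for the gamma-activated site TTCNNNGAA. Of 32851 promoters, 2.98% held the former and 7.02% the latter. The 4 members with an entry, Tdo2, Kmo, Haao and Afmid, held neither. With shares this low, the lack of a match in 4 promoters does not set the members apart. Among 10 promoters of interferon gamma signalling genes, 1 held the response element and 3 the gamma-activated site. A second Irf1 promoter held neither. The 2 windows below carry a match and belong to interferon-responsive genes whose levels are set beside Ido1 further on, with the match in capitals. The Irf1 window lies on the plus strand at chr11:53769904-53769952. The Socs1 window lies on the minus strand at chr16:10785590-10785639, and its capitals span overlapping matches.
Irf1 window: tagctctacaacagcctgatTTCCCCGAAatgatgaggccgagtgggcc
Socs1 window: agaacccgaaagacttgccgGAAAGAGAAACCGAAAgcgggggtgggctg

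Of the members that rose in an allograft, only Kmo had a promoter entry. Its 250 bases lie on the plus strand at chr1:175631943-175632192 and are shown with the core letters GAAA in capitals, which 86.4% of all promoters held on one strand or the other. A match is a description of the letters and not a binding site.
Kmo promoter: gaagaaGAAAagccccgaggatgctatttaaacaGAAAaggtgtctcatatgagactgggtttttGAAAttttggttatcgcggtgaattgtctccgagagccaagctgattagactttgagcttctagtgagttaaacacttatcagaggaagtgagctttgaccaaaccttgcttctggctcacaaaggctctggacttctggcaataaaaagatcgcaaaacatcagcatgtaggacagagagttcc

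Levels are given as quantile-normalized signals in the scanner's arbitrary units, and differences as log2 of one group over another, tested with limma on the brightest probe of each gene and adjusted by Benjamini-Hochberg over all probes (called when the adjusted P was under 0.05). Signals of different probes cannot be set against each other. The 75th percentile of the deposited signal was 394 to 710 on the heart allograft arrays and 1021 to 1247 on the heart controls, and 338 to 478 on the liver allograft arrays against 92.1 to 226 on the liver controls, so that the liver controls were the dimmest arrays. The share of probes that were well above background ran from 52.5% to 70.4% over the arrays. The 3 heart controls filled a slide of their own and the 3 heart allografts lay on another, and the effect of slide cannot be told apart from that of grafting there. The POD5 livers shared no slide with the liver controls, whereas POD8 livers 1 and 2 lay on 1 slide with liver controls 1 and 2. POD5 liver 3 lay on the slide of the heart allografts, and POD5 livers 1 and 2 on another. POD5 liver 3 had the lowest signal of the POD5 livers for Ido1, Tdo2, Afmid, Kmo and Kynu, and whether this follows the slide was not tested. Liver control 1 was the dimmest array of all. The hepatocyte markers Alb and Hnf4a were well above background on none of the heart arrays, and the mean log2 signal of the 8 measured hepatocyte markers was 2.07 to 3.06 on heart arrays and 14.73 to 15.21 on liver arrays. The 7 cardiomyocyte markers had a mean of 14.79 to 16.47 on heart arrays and 3.50 to 4.67 on liver arrays.

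**Figure D1:**
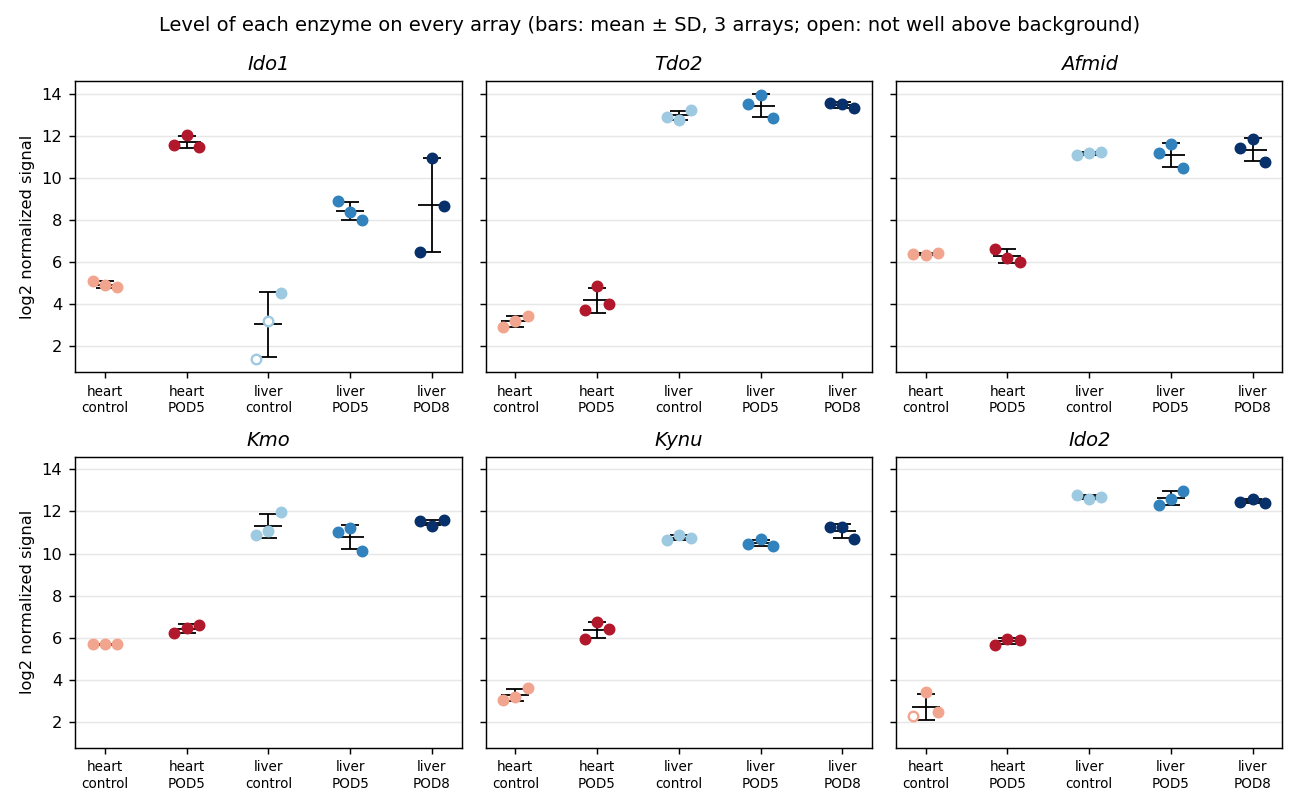
Levels of Ido1, Tdo2, Afmid, Kmo, Kynu and the related Ido2 on each of 15 arrays, as log2 normalized signal (vertical axis) by group (horizontal axis); bars are mean ± SD of 3 arrays and open circles mark arrays on which the probe was not well above background. Ido1 is higher in every allograft than in the controls of its organ, whereas the other enzymes are high in every liver group and low in every heart group.

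In heart allografts at POD5, Ido1, Kynu and Kmo rose and no member fell. Of the 5 members, 3 were called, against 32% of all 41025 probes in the same comparison. The Ido1 signal was 34.19, 29.85 and 27.79 in the heart controls and 3000, 4144 and 2871 in the allografts. All 3 allografts stood far above all 3 controls, and replicates within a group differed by at most 1.44-fold. The difference was 6.75 on the log2 scale (SE 0.18, 95% confidence interval 6.30 to 7.20), which is 108-fold (adjusted P = 0.00024, limma). Ido1 was among the genes that the study selected on these same arrays, so its direction here is not independent evidence. The study also measured Ido1 by RT-PCR and reports more of it in cardiac and hepatic allografts than in isografts.

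Kynu, which releases anthranilate or 3-hydroxyanthranilate, showed the next largest rise. Its signal was 8.354, 8.944 and 12.11 in the heart controls and 61.05, 105.7 and 86.51 in the allografts, with no overlap. This was 8.513-fold, or 3.09 on the log2 scale (SE 0.26, interval 2.44 to 3.73, adjusted P = 0.00159, limma). Kmo rose far less. Its signal was 51.24, 52.62 and 51.51 in the controls and 73.59, 89.18 and 97.05 in the allografts, a difference of 0.73 (SE 0.13, 1.661-fold, adjusted P = 0.0109, limma). After normexp background correction with an offset of 50, which by construction compresses the differences of dim probes, Ido1 differed by 5.10 and Kynu by 1.12, and both stayed called (adjusted P = 9.72e-05 and 0.0022, limma). The Kmo call was lost when 1 model was fitted to all 5 groups (adjusted P = 0.0876, limma).

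Tdo2 and Afmid were not called in the heart. The brighter Tdo2 probe read 7.435, 9.252 and 10.82 in the controls and 13.03, 28.65 and 15.92 in the allografts, which did not overlap (1.999-fold, interval 0.16 to 1.84 on the log2 scale, adjusted P = 0.0746, limma). The other Tdo2 probe was well above background on none of the 6 heart arrays and did not show this rise (-0.70, adjusted P = 0.086, limma). Whether the dim heart signal of the brighter probe is Tdo2 transcript was not tested. The brighter probe passed the threshold when arrays were scaled to their 75th percentile (1.44, adjusted P = 0.00894), when dim probes were left out before adjustment (adjusted P = 0.0384) and in the fit of 5 groups (adjusted P = 0.0296). It was 0.18 after normexp correction (adjusted P = 0.191) and 0.15 for the mean of both probes (adjusted P = 0.691). Afmid read 83.61, 80.2 and 85.72 in the controls and 99.08, 72.89 and 63.7 in the allografts, and these ranges overlapped (difference -0.11, interval -0.56 to 0.35, adjusted P = 0.69, limma). Scaling to the 75th percentile placed the median of all probes in the heart comparison at 0.47, against 0.02 after quantile normalization.

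In liver allografts at POD5, Ido1 alone was called. It was 1 of 5 members, against 3.16% of all 41155 probes. The Ido1 signal was 2.642, 9.084 and 22.84 in the liver controls, of which 1 of 3 was well above background, and 477.8, 326.9 and 258.6 in the allografts. The groups did not overlap and the spread lay mainly among the dim controls (SD 1.56 on the log2 scale, against 0.45 in the allografts). The difference was 5.39 (SE 0.81, interval 3.34 to 7.44), or 41.93-fold (adjusted P = 0.0391, limma). The call was lost without any 1 of the 3 POD5 allografts or without liver control 2, with an adjusted P between 0.107 and 0.161. It was also lost with the slide as a random block (5.24, adjusted P = 0.072, limma). The size of the difference rested on the dim controls. It was 4.57 without liver control 1 and 6.13 without liver control 3, and 2.45 after normexp correction, called in each case (adjusted P = 0.0358, 0.0427 and 0.00846, limma).

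At POD8 no member was called in the liver, against 4.97% of 41157 probes, although 2 of 5 had an unadjusted P under 0.05 in limma (Ido1 and Tdo2). The methods' t-test called 0 members after adjustment. The Ido1 signal was 90.3, 1980 and 403.2. All 3 POD8 allografts exceeded the controls, but they spread over 21.9-fold among themselves. The difference of 5.67 (SE 1.36, interval 2.22 to 9.11, 50.85-fold) did not pass the threshold (adjusted P = 0.0887, limma). It passed with scaling to the 75th percentile (5.14, adjusted P = 0.0219, limma), without dim probes (adjusted P = 0.0368) and in the fit of 5 groups (adjusted P = 0.0022). The filter on dim probes kept a probe that was well above background on all arrays of either group. Ido1 passed it only through the allografts, so the call without dim probes adds no support. The Ido1 difference was also called by the study's standardized fold change (SFC) with Bonferroni adjustment. It was 2.79 after normexp correction (adjusted P = 0.14). It ran from 4.54 without POD8 allograft 2 to 6.77 without POD8 allograft 1, with 4.85 without liver control 1 and 6.41 without liver control 3, and was called in none of these. Both liver comparisons used the same 3 controls. Scaling to the 75th percentile put the median of all probes at -0.38 at POD5 and at -0.46 at POD8, against -0.07 and -0.08 after quantile normalization, and turned the share of called probes that were higher at POD8 from 71% to 18.4%.

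The members that act in the healthy liver, Tdo2, Afmid, Kmo and Kynu, showed no call at either day. Tdo2 read 7664, 6985 and 9500 in the controls, 11630, 15600 and 7439 at POD5, and 11920, 11770 and 10110 at POD8. The POD5 allografts overlapped the controls (difference 0.47, adjusted P = 0.448, limma) and the POD8 allografts were all above them (0.49, interval 0.09 to 0.90, adjusted P = 0.159). On its other probe, the values of both days overlapped those of the controls. Kynu read 1607, 1868 and 1728 in the controls, 1395, 1645 and 1322 at POD5, and 2457, 2462 and 1645 at POD8. Its difference was -0.26 at POD5 (interval -0.63 to 0.11, adjusted P = 0.38, limma) and 0.31 at POD8 (interval -0.19 to 0.81, adjusted P = 0.418), and both sets overlapped the controls.

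Kmo read 1877, 2171 and 3970 in the liver controls, 2060, 2366 and 1111 at POD5, and 2949, 2548 and 3055 at POD8. Control 3 was the highest and POD5 allograft 3 the lowest, and the groups overlapped (differences -0.53 and 0.17, adjusted P = 0.536 and 0.771, limma). Afmid read 2177, 2294 and 2435 in the controls, 2284, 3130 and 1415 at POD5, and 2732, 3628 and 1747 at POD8. Its 2 differences of -0.09 and 0.17 were within the spread of the allografts (adjusted P = 0.905 and 0.748, limma). The intervals for Kmo were -1.58 to 0.53 for POD5 and -0.61 to 0.95 for POD8, so that a change of that size would not have been resolved with 3 arrays a group.

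**Figure D2:**
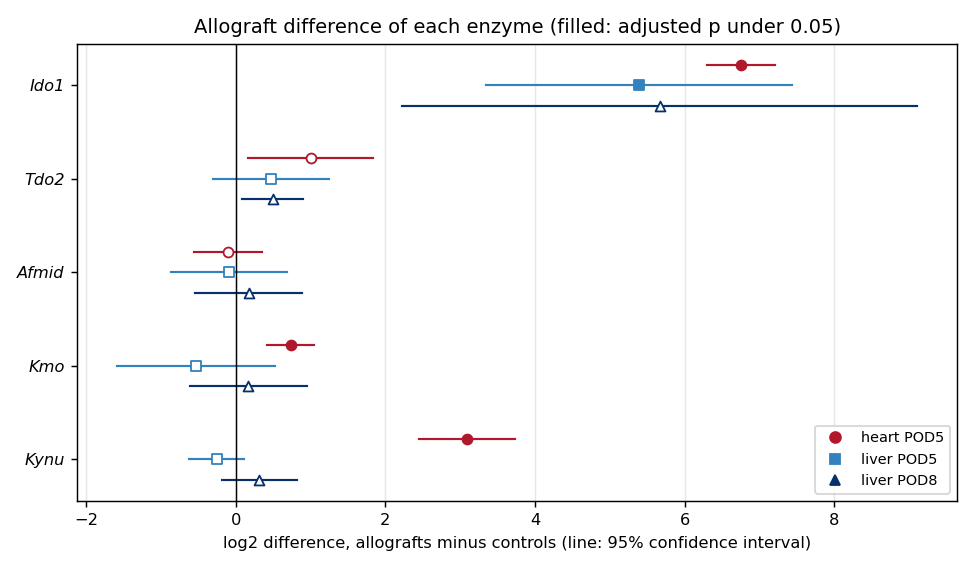
Log2 difference between allografts and controls (horizontal axis) for each enzyme (vertical axis) in hearts at POD5 and livers at POD5 and POD8; lines are 95% confidence intervals and filled symbols have an adjusted P under 0.05. Kynu stands at 3.09 in heart and near 0 in both liver comparisons, and the Ido1 interval is widest in the liver at POD8.

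Between POD8 and POD5 livers no probe of 41165 was called (0%) by limma, with 5299 at an unadjusted P under 0.05. The t-test of the methods called 3 probes after Benjamini-Hochberg adjustment and SFC, the standardized fold change of the study with Bonferroni adjustment, called 213. None of the members was called by any of the 3 tests, and 1 of 5, Kynu, had an unadjusted P under 0.05 in limma. Kynu and Kmo had all POD8 values above the POD5 range, with differences of 0.57 (interval 0.07 to 1.08, adjusted P = 0.351, limma) and 0.69 (interval -0.07 to 1.46, adjusted P = 0.424, limma). Ido1 differed by 0.28, with an interval of -2.54 to 3.10, and by 1.38 without POD8 allograft 1 and -0.85 without POD8 allograft 2.

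The allograft difference in heart was set against that in liver at POD5 by an interaction term in 1 limma fit, which called 13.7% of 41006 probes. Kynu was the member called, and its difference was 3.35 larger in heart than in liver on the log2 scale (SE 0.31, interval 2.66 to 4.04, adjusted P = 0.000562). After normexp correction the Kynu term was 1.35 and stayed called (adjusted P = 0.00133). Kmo differed by 1.26 (interval 0.23 to 2.29, adjusted P = 0.0986) and Ido1 by 1.36 (interval -0.59 to 3.32, adjusted P = 0.321). The Ido1 term passed the threshold at 2.66 after normexp background correction (adjusted P = 0.000757), at 1.99 with scaling to the 75th percentile (adjusted P = 0.0261) and at 2.18 without liver control 1 (adjusted P = 0.0286), the array with the lowest Ido1 signal. Normexp correction compresses dim probes, and it moved the Ido1 difference from 5.39 to 2.45 in liver and from 6.75 to 5.10 in heart. Scaling to the 75th percentile moved the median term of all probes from 0.08 to 0.64. Neither of these 2 calls therefore shows a larger Ido1 rise in heart. The Ido1 term was 0.62 without liver control 3 (adjusted P = 0.524).

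Liver and heart controls differed for 48.2% of 41023 probes, and 4 of 5 members were higher in liver. The Tdo2 difference was 9.78 (interval 9.28 to 10.28), or 880.8-fold (adjusted P = 5e-06, limma), and its other probe was at least 1250-fold brighter in liver, a bound because no heart control was well above background. Kynu was 179-fold, Kmo 48.84-fold and Afmid 27.66-fold higher in liver. After normexp correction the log2 differences of Tdo2, Kynu, Kmo and Afmid were 6.63, 4.66, 4.29 and 3.88, and after quantile normalization in each organ 8.62, 6.23, 4.26 and 3.42, all of them called. Normalization in each organ does not put liver and heart on 1 scale. It moved the median of all probes in this comparison from 0.07 to -0.95. Ido1 ran the other way without passing the threshold (liver minus heart controls -1.90, interval -3.88 to 0.09, adjusted P = 0.103, limma), and 2 of the 3 liver controls were not well above background. It was called without liver control 3 (-2.64, adjusted P = 0.0229), and was -1.08 without liver control 1 and -0.33 after normexp correction (adjusted P = 0.103 and 0.146). It was also called after quantile normalization in each organ (-3.10, adjusted P = 0.0114), but that value carries the shift of all probes and adds no support. For Kynu, the geometric mean of the heart allografts was 82.33 against 1731 in the liver controls, and every heart allograft lay below every liver array. The order of the groups by mean Ido1 signal was heart allografts, POD8 livers, POD5 livers, heart controls and liver controls, with overlapping values in the POD8 and POD5 livers and no call between heart and liver controls in the comparison as first given. Heart allografts were not tested against liver allografts.

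Ido2, the close relative of Ido1, rose in heart allografts and was called in neither liver comparison. Its signal was 4.804, 10.64 and 5.605 in the heart controls, of which 2 of 3 were well above background, and 50.5, 61.36 and 59.63 in the heart allografts (3.11, SE 0.32, 8.64-fold, adjusted P = 0.00266, limma). The liver controls read 7088, 6256 and 6553, the POD5 livers 5067, 6114 and 8091, and the POD8 livers 5507, 6130 and 5463. Neither liver difference was called (-0.07 and -0.22, adjusted P = 0.882 and 0.329, limma), and the heart difference exceeded that in liver at POD5 by 3.18 (adjusted P = 0.00193, limma interaction).

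Of 34 other measured genes of tryptophan use, Ido2 included, 10 rose and 12 fell in heart allografts, where 32% of all probes were called, with a median difference of -0.08 against 0.02 over all probes. Among those that rose, Wars, the tryptophanyl-tRNA synthetase, was next to Ido2, at 1286, 1197 and 1050 in controls and 8918, 8129 and 9092 in allografts (7.415-fold, adjusted P = 0.000437, limma). The kynurenate receptor Gpr35 rose 4.032-fold. The amino acid transporter Slc7a8 rose 3.98-fold, Slc7a5 2.671-fold and their shared heavy chain Slc3a2 2.235-fold. Il4i1, an oxidase that acts on tryptophan and phenylalanine, rose 3.309-fold. In NAD and NADP metabolism, Nampt rose 2.903-fold, Nadk 1.799-fold and Nadsyn1 1.469-fold.

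Ahr, the aryl hydrocarbon receptor, which kynurenine can activate, was among the genes that fell in heart allografts. It read 627.3, 551.4 and 592.9 in controls and 165.9, 164.9 and 206.2 in allografts, which was 3.313-fold lower (adjusted P = 0.00122, limma). Its partner Arnt was 2.429-fold lower, and its targets Cyp1b1 and Tiparp were 2.923-fold and 1.472-fold lower. The monoamine oxidases Maoa and Maob were 3.974-fold and 3.333-fold lower, the decarboxylase Ddc 2.828-fold and the aldehyde dehydrogenase Aldh2 2.091-fold. The kynurenine aminotransferases Kyat1 and Kyat3, which make kynurenic acid, were 2.365-fold and 1.714-fold lower. Nmnat2 and Cyp1a1 were also called lower but were not well above background on any heart array, and no fold is given. In the same hearts, 4 of 7 cardiomyocyte markers and 5 of 5 endothelial markers fell (medians -0.98 and -1.57), against 32% of all probes called in either direction. Whether lower levels reflect fewer cells of a type or less RNA per cell cannot be told apart in whole tissue.

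**Figure D3:**
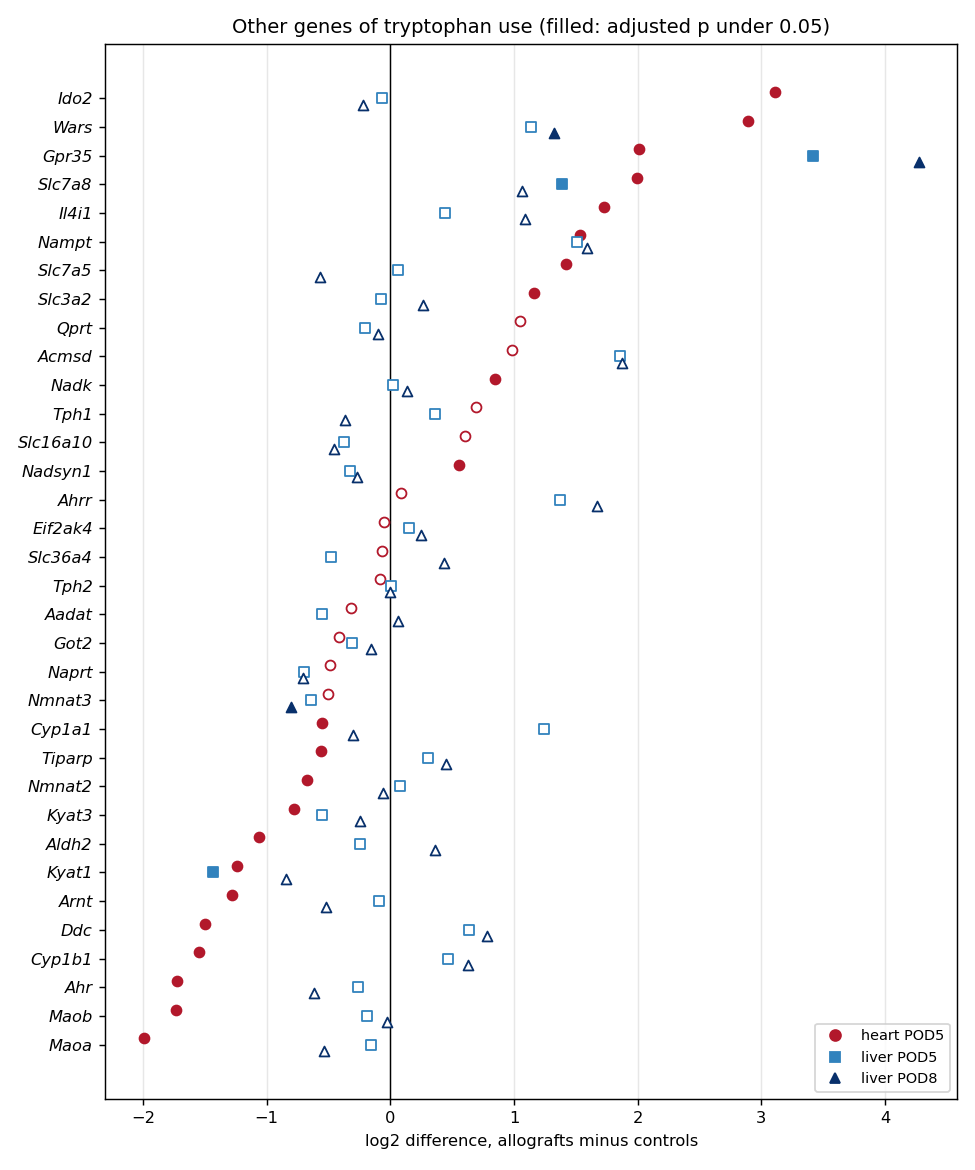
Log2 difference between allografts and controls (horizontal axis) for 34 other genes of tryptophan use (vertical axis, ordered by the heart difference) in hearts at POD5 and livers at POD5 and POD8; filled symbols have an adjusted P under 0.05. In heart 22 of 34 are filled and in either liver comparison 3 of 34; the liver value of Gpr35 is measured against controls that were not well above background.

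In the livers, 2 of the 34 rose and 1 fell at each day, against 3.16% of all probes called at POD5 and 4.97% at POD8. At POD5, Slc7a8 read 373.5, 489.2 and 618.2 in controls and 1111, 1326 and 1372 in allografts (2.616-fold, adjusted P = 0.0455, limma). Kyat1 fell from 16450, 16700 and 11630 to 4431, 6047 and 6071 (difference -1.43, adjusted P = 0.0421, limma). Wars reached 1.14 without passing the threshold (adjusted P = 0.0543, limma). At POD8, Wars rose 2.509-fold (adjusted P = 0.0174, limma), and Nmnat3, an enzyme of mitochondrial NAD synthesis, fell by 0.80 on the log2 scale (adjusted P = 0.0375, limma). Gpr35 was well above background on no liver control and on all 6 liver allografts. It was at least 1.51-fold higher at POD5 (adjusted P = 0.00827, limma) and at least 2.73-fold higher at POD8 (adjusted P = 0.00238). The counts of called genes in the livers moved with single arrays. Leaving out any 1 of the 6 arrays left 0 or 1 call at POD5, and at POD8 there was 1 call without allograft 1 or 2 and 5 calls without liver control 3.

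The interferon gamma signalling genes gave a reference for the Ido1 levels. In heart allografts, 6 of 9 rose and 1 fell, and 5 of 9 rose in the livers at each day. Of all probes, 32% were called in heart, 3.16% in POD5 livers and 4.97% in POD8 livers. Ifng itself read 21.48, 16.77 and 20.41 in heart controls and 16280, 43310 and 35800 in heart allografts (1509-fold, adjusted P = 0.000432, limma). In liver controls it read 11.53, 26.04 and 27.39. The POD5 livers read 816.9, 974.7 and 1760 (55.44-fold, adjusted P = 0.0103, limma) and the POD8 livers 1356, 1662 and 1411 (72.85-fold, adjusted P = 0.00299).

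The 9 interferon gamma signalling genes varied by 1.08-fold to 1.41-fold among the POD8 livers. Ifng varied by 1.23-fold and Irf1, a transcription factor induced by interferon gamma, by 1.24-fold over the same 3 arrays, where Ido1 varied by 21.9-fold. The POD8 liver with the lowest Ido1, at 90.3, had an Ifng signal of 1356 and an Irf1 signal of 28830. That Ifng signal was also the lowest of the POD8 livers, whereas the Irf1 signal lay between those of the other POD8 livers. Ido1 was read on 1 probe, so its spread could not be checked on another. Irf1 rose 18.53-fold in heart (adjusted P = 0.000515, limma) and 4.347-fold in POD8 livers (adjusted P = 0.0317), and its POD5 difference of 1.72 in liver missed the threshold (adjusted P = 0.058). Socs1, a feedback inhibitor of cytokine signalling, rose 56.31-fold in heart, 16.57-fold in POD5 livers and 20.11-fold in POD8 livers. The SD of Ido1 at POD8, 2.23 on the log2 scale, was exceeded by 4 of 24613 probes that were well above background on all 3 arrays, whose median SD was 0.16.

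**Figure D4:**
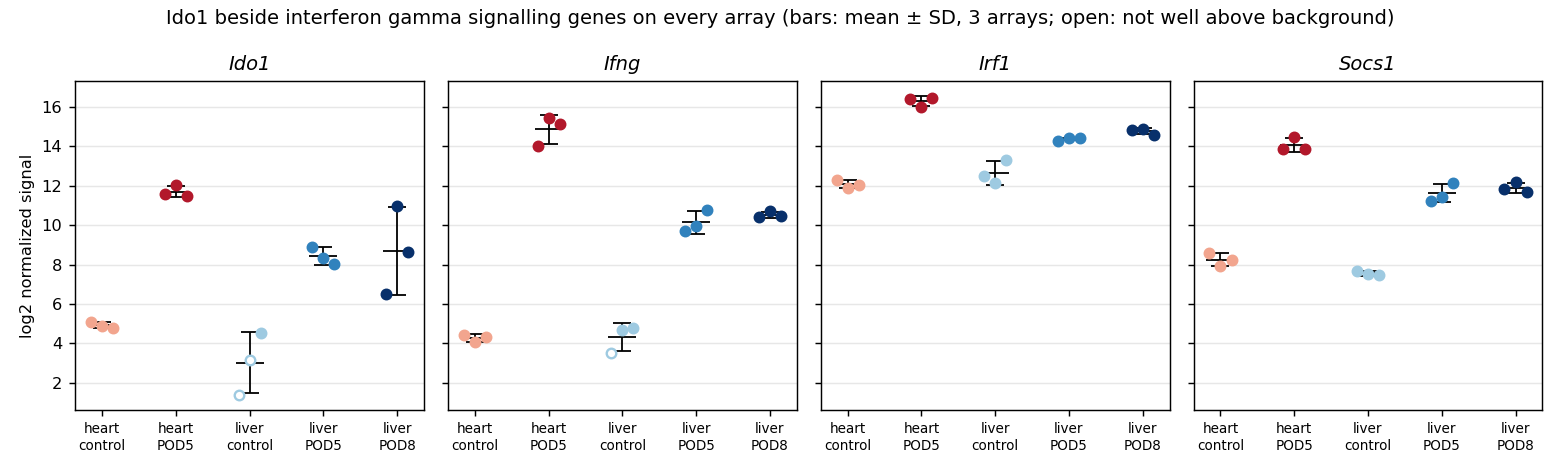
Ido1, Ifng, Irf1 and Socs1 on each of 15 arrays, as log2 normalized signal (vertical axis) by group (horizontal axis); bars are mean ± SD of 3 arrays and open circles mark arrays on which the probe was not well above background. In POD8 livers, Ido1 runs from 90.3 to 1980 in signal while Ifng stays between 1356 and 1662.

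Markers of the immune cells that can express these enzymes moved as follows, and their part in the enzyme levels was not tested. The counts stand beside 32% of all probes called in heart, 3.16% in POD5 livers and 4.97% in POD8 livers. All 5 T cell markers rose in heart allografts and 3 of 5 rose in the livers at each day, with mean log2 signals of 5.36 to 5.74 in heart controls, 8.99 to 9.44 in heart allografts, 4.90 to 5.52 in liver controls and 8.76 to 9.14 in liver allografts. Of 6 dendritic cell markers, 4 rose and 1 fell in heart, 1 rose in POD5 livers and 3 rose in POD8 livers. Of 7 macrophage markers, 1 rose and 1 fell in heart, where their mean was 11.96 to 12.50 in controls and 11.92 to 12.17 in allografts. None was called in the livers by limma, with 1 at an unadjusted P under 0.05 at POD5 and 5 at POD8, and the mean was 8.08 to 10.37 in liver controls and 10.83 to 11.31 in liver allografts. Liver control 1, which also had the lowest Ido1 signal, stood apart in this list. Adgre1 read 1041 there against 4309 and 4373 in the other liver controls, and C1qa 1033 against 5795 and 4351. Of 4 Kupffer cell markers, 2 fell in heart (Vsig4 and Clec4f, the latter well above background on 1 of 6 heart arrays) and 1 rose in POD8 livers. Hepatocyte markers gave no call by limma in either liver comparison, with 1 of 8 at an unadjusted P under 0.05 in each.

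The genes whose log2 signal ran most like each enzyme over the 15 arrays were found among 15260 named genes, as a description in which arrays of 5 groups share their group differences. For Ido1 they were the interferon-inducible GTPase Tgtp1 (Pearson r = 0.96), Klre1, a receptor of natural killer cells, and Serpina3f. For Tdo2 they were Dpys, Cyp3a41a and Cyp2c70, for Kmo Cyp4v3 and Lcat, for Kynu Ass1, Pglyrp2 and Fbxo34, and for Afmid Klkb1, Cbs and Ces2a. No member was among the nearest 3 genes of another.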

How the data were processed

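The deposited values are spot intensities: a processed intensity, background-subtracted by the scanner software and not normalized between arrays, and the median intensities of spot and background. Spots with an outlier mark (47 to 113 of 43379 on an array) were left out, and none was saturated. The log2 intensities of a probe were averaged and quantile normalized over 15 arrays. Probes were named by matching their accession to a RefSeq table of GRCm38.p6, which named 26690 of 41174 probes (64.82%). A gene was read on its probe with the highest mean, and a probe was well above background when at least 0.5 of its spots were so marked.

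Each comparison was fitted with limma 3.58.1 in R 4.3.3 on its own arrays (2-sided, Benjamini-Hochberg over all probes). A level below background was replaced by the lowest signal marked above it to give a bound. The array number limits the precision. Members and gene lists (enzymes, other pathway genes, interferon gamma signalling and cell markers) were chosen with earlier results of these data known. All enzymes are given. Other pathway genes are named where called in an allograft comparison, and interferon gamma signalling by counts and up to 4 genes. Alternatives were other normalizations, background corrections, filters, tests and blocks, and leaving out each array. A normexp correction planned on mean signals used median signals. 1 gene of the likeness search is not reported here. The steps were tested on simulated data. Figures were drawn with matplotlib 3.10.9.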

Additional observations from a re-analysis of the deposited data

Results flagged for a closer look

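Several heart and liver differences at POD5 were unequal by the interaction term of 1 limma fit (adjusted P under 0.05 over 41006 probes). The heart difference exceeded that of liver on the log2 scale by 3.35 for Kynu and 3.18 for Ido2, by 1.75 for Wars, 1.35 for Slc7a5 and 1.24 for Slc3a2, and by 0.88 for Nadsyn1 and 0.82 for Nadk. It lay below that of liver for Ddc (-2.14), Cyp1b1 (-2.02), Maoa (-1.83), Maob (-1.55) and Ahr (-1.47). The fitted term of Gpr35 was -1.40, but no liver control was well above background, so that its liver rise has only a lower bound and the direction of the term is not settled. The Kynu term was 1.35 after normexp background correction with an offset of 50, and stayed called. For Kynu, all 3 heart allografts lay above all 3 heart controls, whereas the liver allografts and controls overlapped. Heart and liver also differed in strains, operation and slides, and these cannot be told apart from the organ.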

How the results depend on the processing

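No member difference reversed past the threshold under any alternative run. Of 625 single-enzyme values under alternatives, 594 kept their side of the threshold, 14 gained a call and 17 lost one. Values that stayed without a call could still change sign. Afmid in heart ran from -0.29 to 0.03, and Ido1 between POD8 and POD5 livers from -0.85 to 1.38. In heart, SFC with Bonferroni adjustment called 1 member and 0 other pathway genes, and limma with Bonferroni 1 and 1, in place of 3 and 22. For POD5 livers (1 member and 3 other pathway genes), the members called were 0 with the slide as a random block, with the methods' t-test, and with Bonferroni, and 0 to 1 without single arrays. The other pathway genes there were 5 with normexp, 8 in 1 fit of 5 groups, 1 with the slide block and with the t-test, 0 with SFC and with Bonferroni, and 0 to 1 without single arrays. For POD8 livers (0 and 3), 1 member was called with scaling to the 75th percentile, without dim probes, in the fit of 5 groups and with SFC. The other pathway genes were then 11, 7, 8 and 0, and 6 with normexp, 6 with the slide block, 0 with Bonferroni, 0 within the slide shared by POD8 livers and controls 1 and 2 (an alternative chosen after seeing the data) and 1 to 5 without single arrays. The interaction called 4 members with scaling to the 75th percentile, 2 with normexp and 1 to 2 without single arrays. Liver against heart controls gave 1 member by SFC. The share of called probes that were higher moved under scaling to the 75th percentile from 48.7% to 74.2% in heart, from 46.9% to 82.3% in the interaction and from 47.1% to 69.1% between controls, and in the last to 12.6% with quantile normalization in each organ. The cause was not tested.

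Replicate numbers did not pair the arrays: same-numbered deviations correlated between -0.12 and 0.09, and 1 of 15 arrays correlated best with its own number. With the replicate block, 0 members and 0 other pathway genes were called in POD5 livers (Ido1 adjusted P = 0.18, limma), and 0 other pathway genes in POD8 livers.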
